A study of Zea mays with 12 samples.

Results

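The glutathione S-transferase genes of the maize stem were followed through larval feeding, wounding and regurgitate treatment. They are the maize gene rows of the deposited table whose description names a glutathione S-transferase or a glutathione transferase, and 37 of the 29723 maize gene rows met that rule. The plants were of the inbred PB130 and were grown in pots in a greenhouse, and 3 libraries were made from each of 4 treatments, giving 12 libraries. Larva plants carried young caterpillars of the stem borer *Sesamia nonagrioides*, placed between leaf sheath and stem. Regurgitate plants had scalpel wounds on the leaf sheath that received caterpillar regurgitate in phosphate buffer, wounding plants had the same wounds with buffer alone, and control plants were untreated. Wounds and applications were renewed every other day, and 15 days after the start a piece of stalk internode free of damage was taken, so that the libraries report on tissue away from the wound. The methods describe 3 plants per treatment treated at silking, whereas the sample labels give larger plant numbers and the VT stage, and which plants entered each library was not settled by either source.

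Glutathione S-transferases join the tripeptide glutathione to reactive, often toxic molecules, which makes these more soluble and marks them for transport into the vacuole. Plants hold large families of them, mostly of the tau and phi classes, and in maize they are best known for the detoxification of herbicides. Some members also reduce organic peroxides, and others carry flavonoids such as anthocyanins to the vacuole. Members are called here by the number in their description or, where that has none, by their RefSeq symbol, and 36 of the 37 were found in RefSeq. One description and its symbol differ, since GRMZM2G156877 is described as glutathione S-transferase IV but carries the symbol gst8, while RefSeq lists GSTIV as another name of GST4 (GRMZM2G132093). GRMZM2G156877 is called GST8 below.

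The libraries were made by massive analysis of 3′ cDNA ends (MACE), in which 1 fragment stands for 1 transcript, so counts do not grow with gene length. Levels set side by side between genes are those of the maize gene rows only. A further 34 rows described as maize transferases held 955 to 2812 counts a library, and close paralogs may share reads, so the order of members by level is approximate. The deposited totals ranged from 5651382 to 10056972 counts per library. Maize genes held 84.9 to 89.1% of the counts in larva libraries and 87.5 to 89.7% in control libraries. They held 72.8, 44.2 and 93.1% in regurgitate replicates 1 to 3, against 74.4, 58.4 and 68.0% in the wounding replicates. Assembled contigs took 2.79 to 7.68% in larva libraries, 1.12 to 48.1% in regurgitate libraries, 17.5 to 34.5% in wounding libraries and 2.49 to 4.27% in control libraries. Larva replicates 2 and 3 were far more alike than any other replicate pair: their counts differed by a chi-square per degree of freedom of 1.55, against 16.6 to 67.8 for the others. They still differed by more than sampling noise, which does not show that they came from different plants. They were kept as separate samples, so the larva standard errors and FDRs count 3 libraries. Summing replicates 2 and 3 into 1 sample was tried between larva and control only, not between larva and wounding. Regurgitate replicate 3 stood apart in another way, since 56.3% of the 238 tested rows that join several gene identifiers lay below 20% of every other library there, against 3.53% of all 20224 genes tested. Levels below are CPM, each gene's counts scaled to a common library size of maize gene counts by TMM over the 12 libraries.

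A few members made up most of the counts in the family's maize gene rows. GST39 (GRMZM2G028821, described as GSTU6, a tau class name) had 686, 1016 and 966 CPM in larva libraries, 814, 797 and 1147 in regurgitate libraries, 1499, 692 and 981 in wounding libraries and 438, 832 and 605 in control libraries. It was the highest member in 11 of the 12 libraries, and its groups overlapped throughout. GST3 (GRMZM2G146246), an herbicide-conjugating enzyme of the phi class, came next with 414 to 451 CPM in larva libraries, 507 to 576 in regurgitate libraries, 700.2 to 831 in wounding libraries and 396 to 573 in control libraries. It led in wounding replicate 2, the single library that GST39 did not lead. GST5 (GRMZM2G308687), GST19 (GRMZM2G335618), GST1 (GRMZM2G116273), GST30 (GRMZM2G044383) and the unnumbered GRMZM2G105005 and GRMZM2G124974 followed. These 8 genes gave 73.9 to 85.7% of the summed level, and 7 members averaged over 100 CPM. At the other end, 5 members were too low to be tested in any of the 5 pairs of treatments fitted: GST38, GST6, GRMZM2G330635, GST40 and GST16. The last 3 of these had under 20 counts over all libraries together. A further 28 members were tested in all of these pairs.

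The summed level of the 37 genes averaged 2560.3 ± 134 CPM in larva, 3148 ± 441 in regurgitate, 3531 ± 859 in wounding and 2404 ± 569 in control libraries (SD, n = 3 each). The ranges were 2427 to 2694, 2643 to 3461, 2689.8 to 4408 and 1897 to 3019 CPM in the same order, so the control range overlapped with each of the others.

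**Figure D1:**
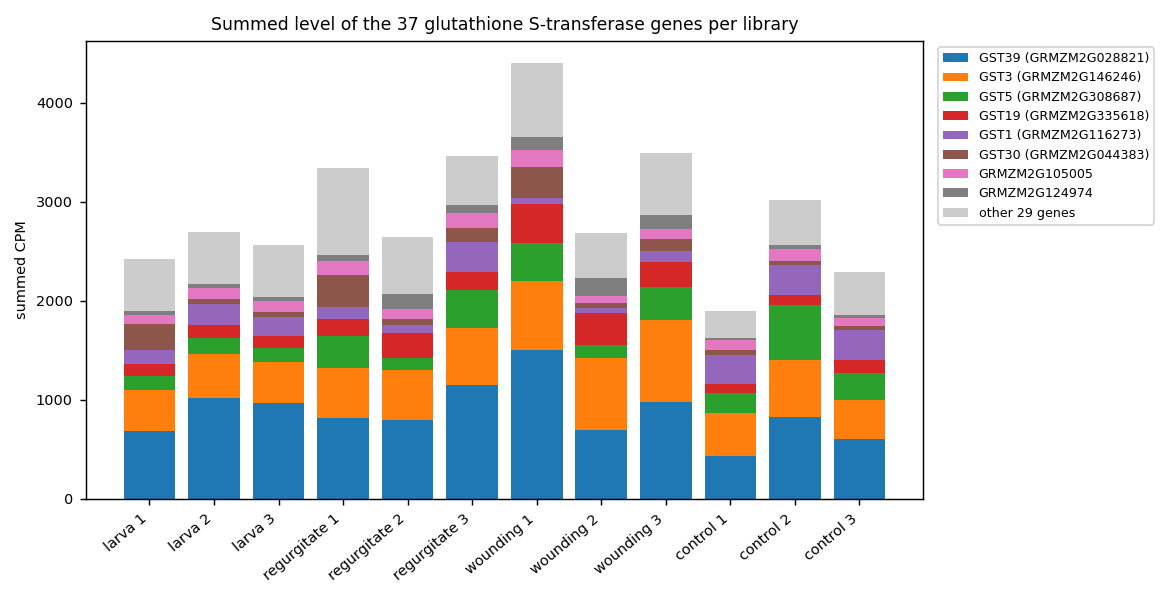
Summed CPM of the 37 genes in each of the 12 libraries (bars, stacked by gene), with the 8 highest genes in colour and the other 29 in grey. The bars run from 1897 CPM in control replicate 1 to 4408 CPM in wounding replicate 1, and GST39 and GST3 form the base of every bar.

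Larval feeding was compared with untreated plants to ask how the stem answers to the borer over the long term. None of the 30 members tested passed an FDR of 0.05 by edgeR's quasi-likelihood test, and 0% of all 19612 maize genes tested did. At an unadjusted p under 0.05 there were 9 members, 6 higher and 3 lower in larva plants, that is 30% of those tested, against 9.78% of all genes. DESeq2 called 0 members and 1.39% of all genes. The median log2 fold change of the members was 0.25, beside -0.01 over all genes tested, with 20 members above 0 and 10 below. The larva and control ranges did not overlap for 8 members, 5 of them higher and 3 lower, beside 15.5% of all genes.

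GST1, a phi class enzyme that acts on several herbicides, had the smallest FDR of the members in this comparison. It had 137, 214 and 195 CPM in larva libraries, against 292, 299 and 294 CPM in control libraries. Every larva library lay below every control library, by a log2 fold change of -0.71 ± 0.20 (SE, n = 3 each), which did not pass edgeR's test (FDR 0.338). GST5 had 142, 158 and 142 CPM in larva libraries, against 199, 549 and 266 CPM in control libraries, and its log2 fold change was -1.21 ± 0.37 (edgeR FDR 0.373). Again the groups did not overlap, though the control libraries were themselves widely spread. GST20 (GRMZM2G056388) was the remaining member with a lower range, at 11.8 to 14.8 CPM in larva libraries, against 15.7 to 21.1 CPM in control libraries.

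Among members with higher values in larva plants, GST25 (GRMZM2G161905) had the greatest log2 fold change, 1.96 ± 0.64 (edgeR FDR 0.401). Its larva libraries had 10.8, 74.7 and 61.9 CPM, against 14.5, 10.3 and 12.6 CPM in control libraries. Larva replicates 2 and 3, which were so alike, carried the whole difference, and larva replicate 1 lay inside the control range. Without larva replicate 1 the log2 fold change was 2.45 and passed edgeR's test (FDR 0.0408), the single call among members that leaving out 1 library gave in this comparison. With larva replicates 2 and 3 summed into 1 sample it was 1.69 (edgeR FDR 0.876). GST30 showed the opposite pattern, where the larva libraries had 261, 54.5 and 53.0 CPM and replicate 1 was the high one, against 49.0, 40.2 and 40.9 CPM in control libraries. The difference of 1.48 ± 0.62 on the log2 scale (edgeR FDR 0.50) rested mainly on 1 library. GST8 had 6.32, 5.12 and 7.67 CPM in larva libraries, against 1.48, 0.946 and 4.19 CPM in control libraries. GRMZM2G146913, a GSTU6-described gene, was even across the larva libraries at 43.6, 40.7 and 40.5 CPM, against 17.2, 33.4 and 17.7 CPM in control libraries. Both had ranges that did not overlap, by 1.49 ± 0.52 on the log2 scale for GST8 (edgeR FDR 0.436) and by 0.86 ± 0.27 for GRMZM2G146913 (edgeR FDR 0.390). Leaving out single libraries gave 1.15 to 2.34 for GST8, the highest value without control replicate 3. The others with a higher larva range, GRMZM2G428168 and GRMZM2G102216, differed by 0.37 and 0.45 on the log2 scale.

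**Figure D2:**
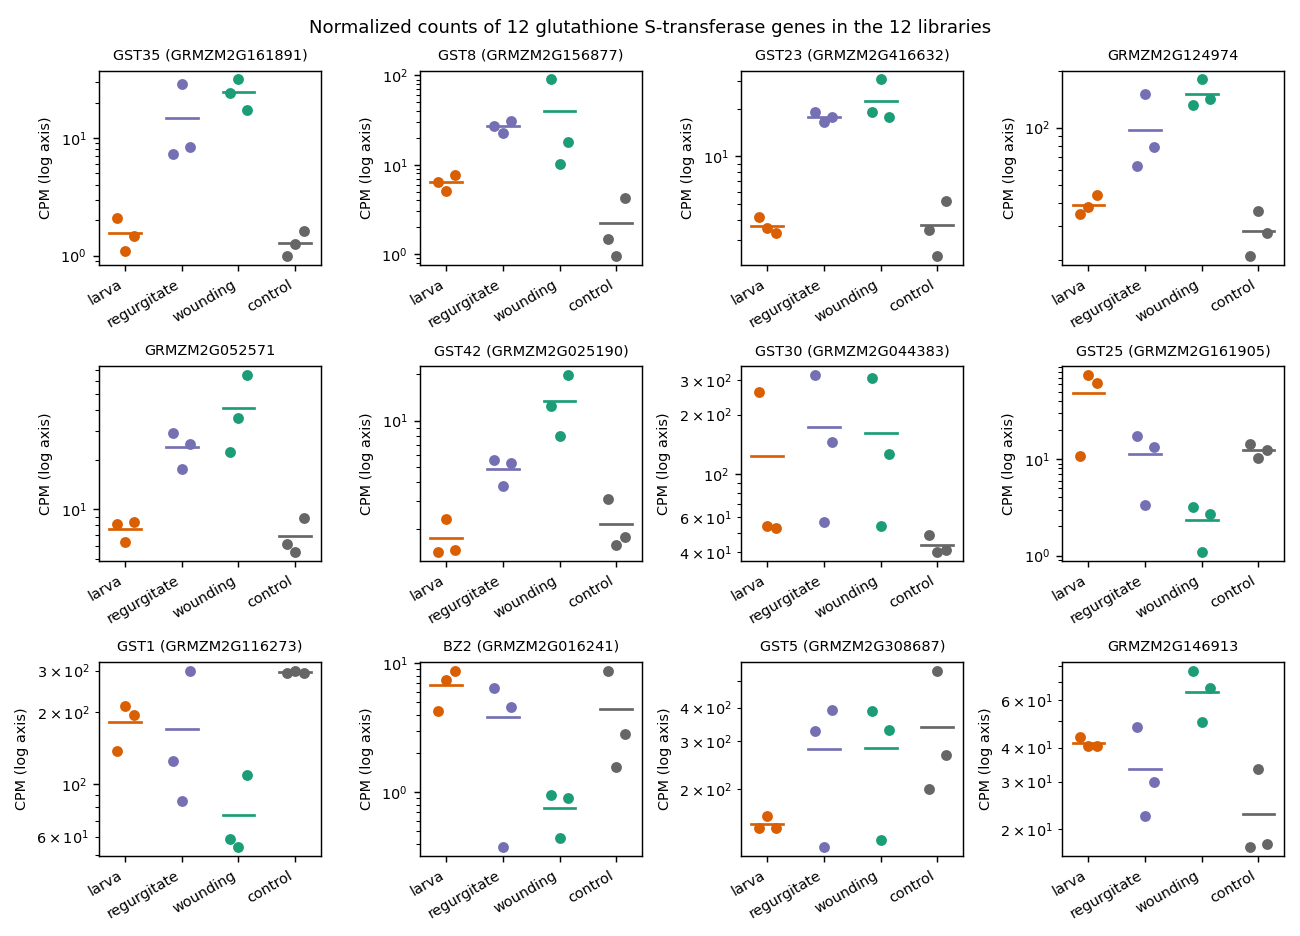
CPM (log axis) of 12 members in each library of the larva, regurgitate, wounding and control groups, with points for libraries in replicate order from left to right and a line at each group's mean. For GST35, GST23, GRMZM2G124974 and GRMZM2G052571 every regurgitate and wounding library lies above all larva and control libraries, while GST25 is lower in the 3 wounding libraries than in any other.

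Regurgitate was compared with wounding alone to separate the effect of the insect's secretion from that of the cut. No member of 29 tested passed edgeR's test, beside 0.0602% of all 18285 genes tested. With the replicate number as a block 0 members passed as well. At an unadjusted p under 0.05 there were 6 members, 3 higher and 3 lower, beside 19.8% of all genes, and DESeq2 called 1 member, beside 8.93% of all genes. The median log2 fold change was 0.06, against -0.02 over all genes. The ranges of 6 members did not overlap, 3 in each direction, beside 26.4% of all genes.

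The member that DESeq2 called was GST25, which had 17.4, 3.37 and 13.5 CPM in regurgitate libraries, against 3.22, 1.10 and 2.69 CPM in wounding libraries. Every regurgitate library was above every wounding library, though replicate 2 only narrowly. It differed by 2.29 ± 0.67 on the log2 scale, with an FDR of 0.142 by edgeR and 0.0252 by DESeq2, and without regurgitate replicate 2 edgeR's FDR was 0.0473. GRMZM2G428168 had 62.6, 38.9 and 69.3 CPM in regurgitate libraries, against 38.8, 17.5 and 15.7 CPM in wounding libraries, a log2 fold change of 1.25 ± 0.41 (edgeR FDR 0.173). GST10 (GRMZM2G096153) had 28.3, 19.8 and 36.4 CPM in regurgitate libraries, against 12.7, 8.55 and 17.0 CPM in wounding libraries, and also did not overlap. Lower ranges were found for GST42 (GRMZM2G025190), with 5.57, 3.74 and 5.33 CPM in regurgitate libraries, against 12.5, 7.89 and 19.7 CPM in wounding libraries, for GRMZM2G146913 and for GST3, with 507, 507 and 576 CPM in regurgitate libraries, against 700.2, 734 and 831 CPM in wounding libraries. GST42 differed by -1.43 ± 0.40 on the log2 scale (edgeR FDR 0.133), GRMZM2G146913 by -0.95 ± 0.32 (edgeR FDR 0.180) and GST3 by -0.52 ± 0.25 (edgeR FDR 0.303). Between wounding and control plants, a comparison that shares the wounding libraries, the log2 fold changes of GST10, GST25 and GST42 were -1.19, -2.41 and 2.60.

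Wounding alone was compared with untreated plants, and named members differed in both directions. This comparison takes in the renewed cuts, the buffer and the parafilm seal together, and cannot part them. Of 30 members tested, 12 rose and 4 fell by edgeR's test, together 16, or 53.3% of those tested, beside 38.8% of all 19166 genes. The members that rose were 12 of the 30 tested, beside 19.6% of all genes, and those that fell were 4 of the 30, beside 19.3%. DESeq2 called 17 members, 13 higher and 4 lower, beside 41.8% of all genes. The median log2 fold change was 0.61, against -0.01 over all genes, and ranges did not overlap for 13 members on the higher and 4 on the lower side, beside 55.1% of all genes. In tissue of many cell types such as the stem, fewer cells of a type and less RNA per cell cannot be told apart.

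GST35 (GRMZM2G161891) was nearly silent in untreated stems and rose most. It had 24.4, 31.6 and 17.5 CPM in wounding libraries, against 0.989, 1.26 and 1.62 CPM in control libraries. That is 19.0-fold by the group means and a log2 fold change of 4.22 ± 0.34 (edgeR FDR 0.00058). GST8 had 90.1, 10.3 and 18.2 CPM in wounding libraries, against 1.48, 0.946 and 4.19 CPM in control libraries. Wounding replicate 1 was far above the other replicates, and the rise of 4.13 ± 0.97 on the log2 scale (edgeR FDR 0.0151) ranged from 2.65 to 4.97 when single libraries were left out, with the call lost without control replicate 2. GST23 (GRMZM2G416632), whose gene has been associated with resistance of maize to leaf diseases, had 18.9, 30.5 and 17.7 CPM in wounding libraries, against 3.46, 2.37 and 5.28 CPM in control libraries. It rose by 2.57 ± 0.37 on the log2 scale (edgeR FDR 0.00271).

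The unnumbered GRMZM2G124974 was the most abundant gene among those with more than 5-fold higher means. It had 131, 179.9 and 143 CPM in wounding libraries, against 20.9, 36.4 and 27.6 CPM in control libraries, and its log2 fold change was 2.41 ± 0.26 (edgeR FDR 0.00114). GRMZM2G052571 had 22.3, 35.9 and 65.7 CPM in wounding libraries, against 6.18, 5.52 and 8.79 CPM in control libraries. GST42 had 12.5, 7.89 and 19.7 CPM in wounding libraries, against 3.09, 1.58 and 1.76 CPM in control libraries. Both rose, by 2.57 ± 0.42 and 2.60 ± 0.44 on the log2 scale (edgeR FDR 0.00423 and 0.00472). GST37 (GRMZM2G178079), GST15 (GRMZM2G150474), GST19 and GRMZM2G146913 rose by between 1.49 and 1.61 on the log2 scale, and the theta class gene GRMZM2G077183 by 0.85 ± 0.17. Theta class enzymes are known mainly for peroxidase activity. GST19 was the most abundant of the genes that rose, with 396, 319.8 and 247 CPM in wounding libraries, against 88.8, 110.1 and 139.9 CPM in control libraries.

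GST30 was also called, but unevenly. Its wounding libraries had 305, 54.1 and 126 CPM, against 49.0, 40.2 and 40.9 CPM in control libraries, and the call (log2 fold change 1.89 ± 0.57, edgeR FDR 0.0359) was lost in 9 of 15 other settings, among them leaving out wounding replicate 1 or 3. Its replicate 1 was the highest library in the larva, regurgitate, wounding and control groups alike, though by little in the control group. The most abundant members did not pass the test. GST39 differed by 0.75 ± 0.38 on the log2 scale (edgeR FDR 0.157), GST3 by 0.68 ± 0.24 (edgeR FDR 0.0568, DESeq2 FDR 0.00843) and GST5 by -0.27 ± 0.51 (edgeR FDR 0.701). Of the 7 GSTU6-described members tested, 3 rose and 0 fell, beside 19.6% and 19.3% of all genes.

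In stems of wounding plants 4 members fell. BZ2 (GRMZM2G016241), the transferase of the anthocyanin pathway that is needed to place the pigment in the vacuole, had 0.946, 0.438 and 0.897 CPM in wounding libraries, against 8.78, 1.58 and 2.84 CPM in control libraries. BZ2 changed by -2.52 ± 0.76 on the log2 scale (edgeR FDR 0.0362), at low levels, and leaving out any wounding library or control replicate 1 or 3 ended the call, with values between -2.91 and -1.52 over all such fits. GST25 had 3.22, 1.10 and 2.69 CPM in wounding libraries, against 14.5, 10.3 and 12.6 CPM in control libraries, and fell by 2.41 on the log2 scale (SE 0.39, edgeR FDR 0.00415). GST1 had 58.7, 54.1 and 109 CPM in wounding libraries, against 292, 299 and 294 CPM in control libraries. It was the most abundant of the genes that fell, with a log2 fold change of -2.01 ± 0.30 (edgeR FDR 0.00297). The row of GST1 joins an assembled contig to the gene, and how much of its counts came from the contig was not tested. Both GST1 and GST25 kept the call in all 15 other settings. GST10 had 12.7, 8.55 and 17.0 CPM in wounding libraries, against 28.6, 37.1 and 21.2 CPM in control libraries, and its log2 fold change was -1.19 ± 0.31 (edgeR FDR 0.0219). Its call was lost in 4 of 15 other settings, namely with the replicate block (with 14 members called in all) and without control replicate 2 or wounding replicate 1 or 2.

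Other measures differed between wounding and control libraries as well. The contig share was 17.5 to 34.5% in wounding libraries, against 2.49 to 4.27% in control libraries. Outside the maize gene rows, 31 rows described as fungal transferases held 1252, 3774 and 2732 counts in wounding libraries, against 117, 18 and 52 in control libraries. A list for the secondary wall was chosen by the words cellulose synthase, caffeoyl-CoA and cinnamyl alcohol dehydrogenase. Genes of other walls may be in it. The summed level of its 23 genes was 430.3 to 705 CPM in wounding libraries, against 1348 to 2246 CPM in control libraries. It was below the control range in larva libraries (1054 to 1311 CPM) and regurgitate libraries (424 to 968 CPM) too, so it moved with every comparison with control given here. Genes of dividing cells overlapped, at 3179 to 5509.5 CPM in wounding libraries, against 2158 to 3904 CPM in control libraries. Green tissue genes overlapped, at 3612 to 6407 CPM in wounding libraries, against 4279 to 8074 CPM in control libraries. No marker row of these lists was at 0 in all libraries. The part of these differences in the values of the transferase genes was not tested. With total counts in place of TMM scaling the median of all genes moved to -0.44, and 10 members were called higher and 6 lower. None of the 16 members called with TMM changed direction under it.

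**Figure D3:**
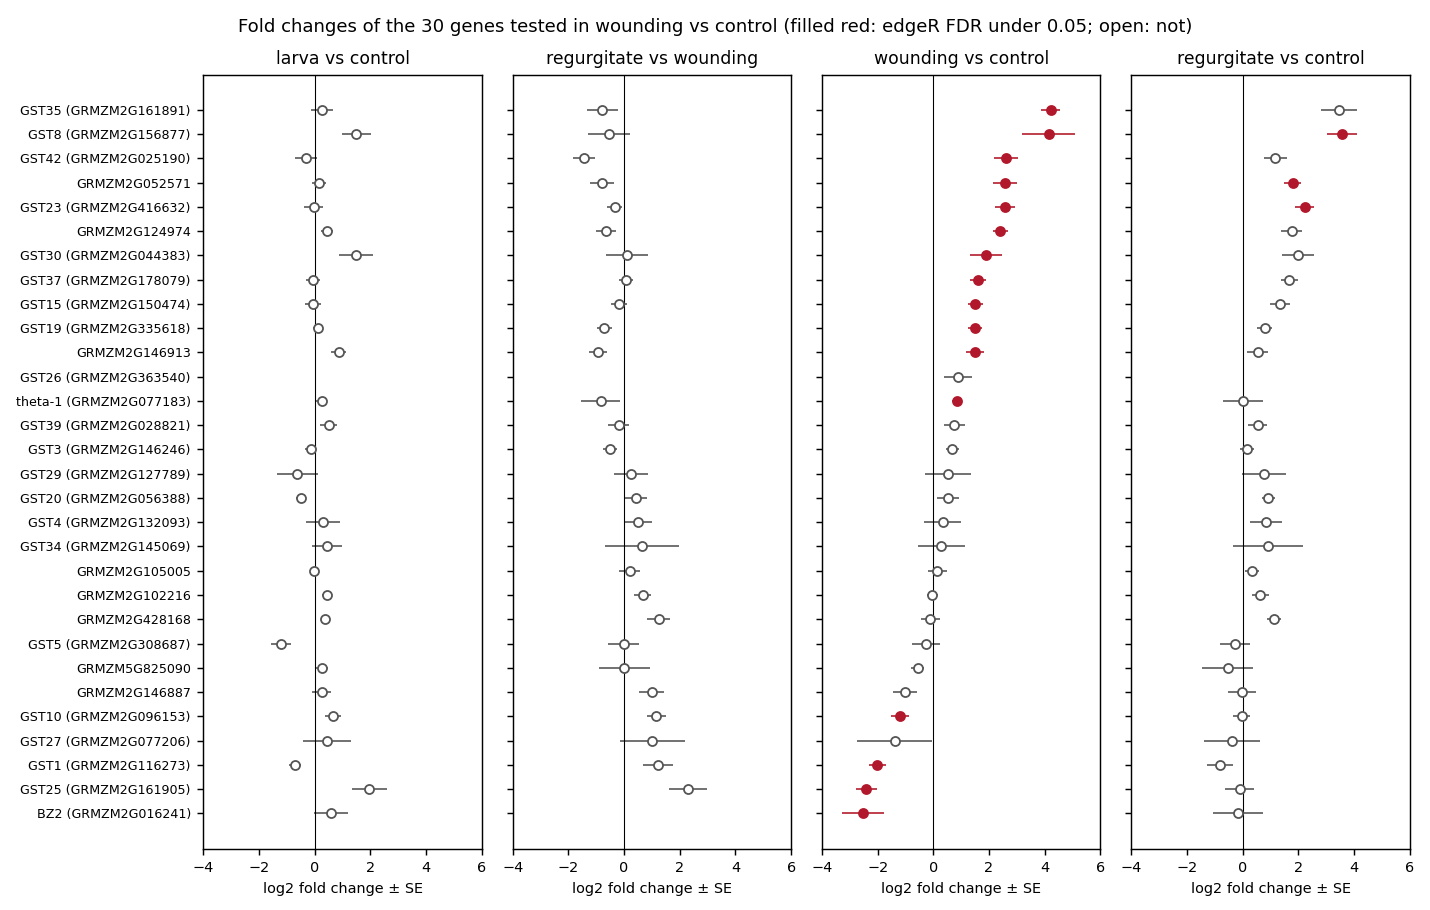
Log2 fold changes with standard errors of the 30 members tested in wounding against control, in 4 comparisons, ordered by the wounding column; filled red points passed an edgeR FDR of 0.05 and open points did not. The wounding column runs from -2.52 for BZ2 to 4.22 for GST35, no point is filled in the larva and regurgitate against wounding columns, and 3 are filled in the regurgitate against control column.

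Regurgitate plants, which were wounded too, were also set against untreated plants. Here 3 of 30 members passed edgeR's test, all of them higher, beside 1.28% of all 19171 genes in both directions and 1.08% higher, and DESeq2 called 10, again all higher, beside 8.9% of all genes. At an unadjusted p under 0.05 there were 12 members, all higher, beside 19.4% of all genes. GST8 had 27.4, 22.5 and 31.2 CPM in regurgitate libraries, against 1.48, 0.946 and 4.19 CPM in control libraries, and rose by 3.58 ± 0.53 on the log2 scale (edgeR FDR 0.0386). GST23 had 18.9, 16.5 and 17.8 CPM in regurgitate libraries, against 3.46, 2.37 and 5.28 CPM in control libraries, and rose by 2.23 ± 0.34 (edgeR FDR 0.0386). GRMZM2G052571 had 29.2, 17.6 and 25.0 CPM in regurgitate libraries, against 6.18, 5.52 and 8.79 CPM in control libraries, and rose by 1.79 ± 0.30 (edgeR FDR 0.0495). In wounding plants the log2 fold changes of these 3 genes against the same control libraries were 4.13, 2.57 and 2.57.

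These calls were close to the threshold, and with single libraries left out GST8 ranged from 3.23 to 4.44, highest without control replicate 3. Leaving out regurgitate replicate 1 or any control library left 0 members called, as did the replicate block. GST35 had 7.35, 28.8 and 8.44 CPM in regurgitate libraries, and its log2 fold change of 3.45 ± 0.64 against control did not pass edgeR's test (FDR 0.0642) and was 2.60 without regurgitate replicate 2, the lowest of 2.60 to 3.78. The 4 genes that fell in wounding plants were not called in regurgitate plants, where the log2 fold changes were -0.17 ± 0.89 for BZ2, -0.11 ± 0.52 for GST25, -0.81 ± 0.46 for GST1 and -0.04 ± 0.30 for GST10. The same 4 genes had 0.58 ± 0.61, 1.96 ± 0.64, -0.71 ± 0.20 and 0.66 ± 0.29 in larva plants, where none was called. In regurgitate replicate 3 the theta class gene GRMZM2G077183 (4.59 CPM), GST34 (GRMZM2G145069, 1.63 CPM) and GRMZM5G825090 (2.07 CPM) lay below 20% of every other library. GST34 and GRMZM5G825090 are the 2 members whose rows join several gene identifiers. Without that library the log2 fold change of GRMZM5G825090 against control was 0.05, beside -0.55 with it.

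After these results were seen, larva plants were also compared with wounding plants directly. Of 29 members tested 17 were called, 6 higher and 11 lower in larva plants, beside 43.6% of all 19023 genes, 21.5% higher and 22.2% lower. DESeq2 called 17, beside 44.9% of all genes. GST35 had 2.07, 1.10 and 1.46 CPM in larva libraries, against 24.4, 31.6 and 17.5 CPM in wounding libraries, a log2 fold change of -3.94 ± 0.35 (edgeR FDR 0.000613). GST25 lay at the other end with 4.37 ± 0.80 (edgeR FDR 0.00556). GST3, GRMZM2G146887 and GRMZM5G825090 were called here with log2 fold changes of -0.81 ± 0.18, 1.27 ± 0.26 and 0.83 ± 0.15, beside 0.68, -1.02 and -0.57 for wounding against control, which edgeR did not call (DESeq2 called GST3 there, FDR 0.00843). Scaling by total counts moved the median of all genes in this comparison to 0.40 and gave 7 members called higher and 8 lower.

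Over the 4 treatments together, 16 of 32 members tested differed by edgeR's test, beside 33.9% of all 20224 genes, and DESeq2 called 17, beside 45%. GST23 had the lowest FDR, 0.000261. GST20 and GRMZM2G428168, which edgeR called in none of the 5 pairs of treatments fitted, were among the 16 (edgeR FDR 0.0346 and 0.0296), and DESeq2 called both between regurgitate and control (FDR 0.0302 and 0.00361). The larva response (larva against control) was then tested against the regurgitate response (regurgitate against wounding) in all libraries. No member of 32 passed edgeR's test of this difference, beside 1.15% of all genes, with 4 at an unadjusted p under 0.05 (17% of all genes) and 2 called by DESeq2 (6.47% of all genes). The 2 were GRMZM2G146913, with a difference of 1.82 ± 0.45 on the log2 scale, and GST1, with -1.90 ± 0.60. An FDR over the threshold does not show that the responses were alike, since the standard errors of the members' differences reached 1.59 on the log2 scale.

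Several members are neighbours in the genome, by their order in RefSeq's annotation of a newer B73 assembly than the one the counts were made on. GST25 and GST35 are direct neighbours, with no protein-coding gene between them. In wounding plants GST25 fell (-2.41 ± 0.39) and GST35 rose (4.22 ± 0.34), and in larva plants GST25 had 1.96 ± 0.64 and GST35 had 0.25 ± 0.39, neither of them called. GRMZM2G146887 and GRMZM2G146913 form another such pair, both described as GSTU6. The first averaged 7.41 ± 2.29 CPM in wounding libraries and 15.0 ± 6.83 CPM in control libraries (SD, n = 3 each; log2 fold change -1.02 ± 0.43, edgeR FDR 0.0988), while GRMZM2G146913 rose by 1.49 ± 0.31 (edgeR FDR 0.0106). A longer run holds GST37, GST39, GST38 and GST30 side by side, with GST42 separated from GST37 by 4 other genes and GST34 from GST42 by 2. Of these, GST37, GST42 and GST30 rose in wounding plants, GST39 and GST34 were not called, and GST38 was too low to test. Reads that match several places in the genome were kept by the study's alignment, so counts of close paralogs may be shared between them.

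**Figure D4:**
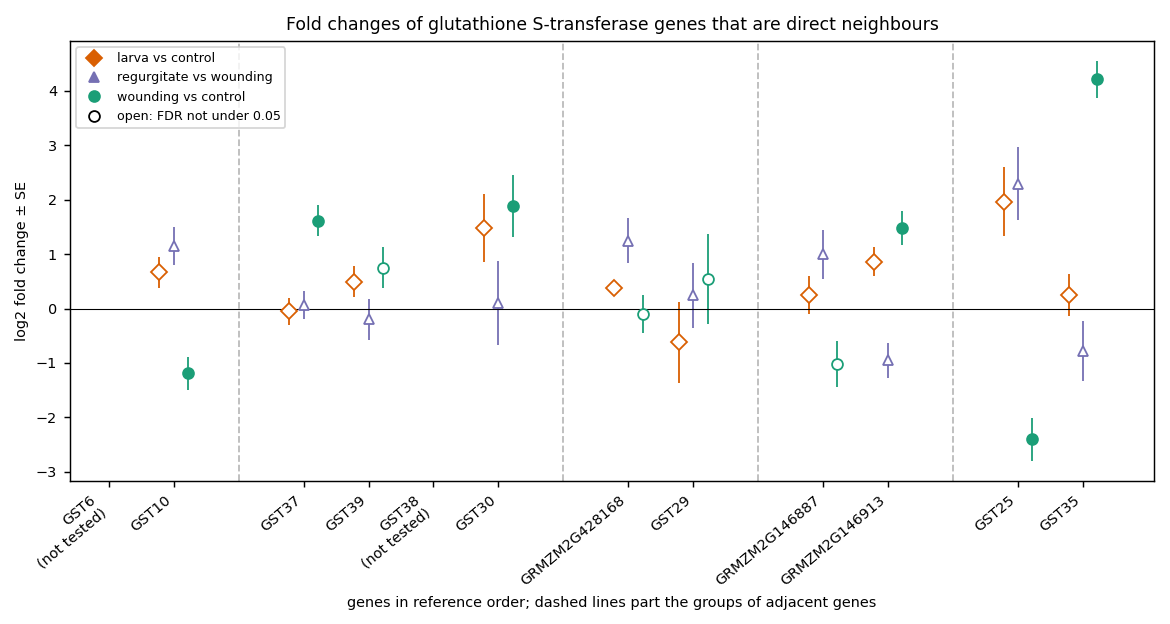
Log2 fold changes with standard errors of members that are direct neighbours, for larva against control (diamonds), regurgitate against wounding (triangles) and wounding against control (circles), filled where edgeR's FDR was under 0.05. GST25 and GST35, at the right, lie at -2.41 and 4.22 for wounding against control.

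Genes that make, use or transport glutathione, and genes related to these, were counted from lists of description words, 47 rows in all. Among the 47 are 4 ascorbate peroxidases, listed for the ascorbate-glutathione cycle, and 7 rows listed as relatives of the transferases under other names. Not all of the 47 rows therefore are glutathione genes. None of 43 tested was called between larva and control plants by edgeR, with 2 higher and 6 lower at an unadjusted p under 0.05 and 1 called lower by DESeq2, beside 0% of all genes by edgeR, 9.78% at that unadjusted p and 1.39% by DESeq2. Between wounding and control plants 10 rose and 7 fell of 43 tested, beside calls for 38.8% of all genes. Gamma-glutamylcysteine synthetase (GRMZM2G111579), which makes the first intermediate of glutathione, had 137, 109 and 91.0 CPM in wounding libraries, against 76.9, 65.8 and 70.6 CPM in control libraries, and rose by 0.65 on the log2 scale (edgeR FDR 0.0405). The 5 glutathione peroxidases, which remove peroxides, split into 2 that rose (GRMZM2G144153 by 1.23 and GRMZM5G884600 by 0.82), 1 that fell (GRMZM2G135893, -1.33) and 2 not called. Glutaredoxins, small proteins that use glutathione to reduce disulphides, had 4 that rose and 2 that fell of 18 tested, led by GRMZM2G178886 with 3.45 and GRMZM2G311898 with 2.77. Of the lactoylglutathione lyases, which detoxify methylglyoxal, GRMZM2G312877 had 239, 651 and 183 CPM in wounding libraries, against 45.5, 33.3 and 42.9 CPM in control libraries, and rose by 3.13, whereas GRMZM2G028110 had 2.65, 1.75 and 4.48 CPM in wounding libraries, against 45.6, 24.4 and 24.1 CPM in control libraries, with -3.42.

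MRP3 (GRMZM2G111903), a transporter of the vacuolar membrane linked in maize to anthocyanins, was lower in wounding plants like BZ2, at 25.9, 18.2 and 18.8 CPM, against 53.8, 39.1 and 54.2 CPM in control libraries (log2 fold change -1.23, edgeR FDR 0.00583). The gene for protein IN2-1 (GRMZM2G042639), a relative of the transferases that is known for its induction by herbicide safeners, had 92.3, 608 and 21.0 CPM in regurgitate libraries, against 32.9, 37.04 and 33.0 CPM in wounding libraries and 17.2, 14.4 and 7.85 CPM in control libraries. It rose by 1.37 in wounding plants (edgeR FDR 0.0106), while its value of 2.77 on the log2 scale for regurgitate against wounding was not called by edgeR (FDR 0.221) but was by DESeq2 (FDR 0.0412). Regurgitate replicates 1 and 2 lay above every wounding library and replicate 3 below them.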

How the data were processed

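Per the methods and the submitters' processing notes, copies of a read with 1 barcode were discarded, and Novoalign 3.00.05 aligned the others to the maize genome and transcriptome of Ensembl release 23. Contigs were built from what did not align. The authors deposited raw counts per feature, without normalization. Their DESeq p-values, FDRs, log2 fold changes and normalized group means were not used. Columns were mapped to treatments by sample title, with 0 left unmapped. Counts of maize gene rows were tested with edgeR 4.0.16 in R 4.3.3 (quasi-likelihood F test, two-sided, TMM scaling, filterByExpr with a minimum count of 10 and total of 15), each pair of treatments fitted on its own 6 libraries. The FDR is the Benjamini-Hochberg adjusted p over all maize genes tested, with a threshold of 0.05, and ± after a fold change is its standard error. edgeR stands for the DESeq of the methods, and DESeq2 1.42.0 was an alternative. The tests were tried on simulated counts. Other settings were the scaling, the filter, 1 fit of all libraries, a replicate block and each library left out. The deviations of same-numbered regurgitate and wounding libraries correlated by 0.176, 0.337 and 0.187. Differently numbered libraries of these groups gave -0.264 to 0.121. The numbers were taken to pair these groups, and no other groups. This pairing is not established, since libraries of other groups with different numbers reached similar values. Control replicate 3 with wounding replicate 1 gave 0.304, and control replicate 2 with larva replicate 1 gave 0.269. Nothing states that replicates shared a date or bench. Named by rule were the members of the study's lists, the 8 highest, the 4 of smallest p in each direction and comparison, and all called members, 26 in all. Some other members were named for ranges that did not overlap, low counts, a single low library, their symbol or their place beside other members. Members and lists were chosen with earlier results of these data known, and larva against wounding was added after the data were seen. Intervals and errors cover the spread between these libraries only. No gene sequence was used.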

Additional observations from a re-analysis of the deposited data

Results flagged for a closer look

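In GRMZM2G146913 the larva response (larva against control) and the regurgitate response (regurgitate against wounding) had opposite signs. Neither pair of ranges overlapped. It had 43.6, 40.7 and 40.5 CPM in larva libraries, against 17.2, 33.4 and 17.7 CPM in control libraries, and 47.5, 22.5 and 29.8 CPM in regurgitate libraries, against 76.8, 49.8 and 66.1 CPM in wounding libraries. The responses were 0.86 and -0.95 on the log2 scale, and edgeR called neither (FDR 0.390 and 0.180). They have different reference groups. Against the same control libraries the log2 fold changes in larva, regurgitate and wounding plants were all positive, at 0.86, 0.54 and 1.49. Of these, edgeR called only the one in wounding plants. The difference of both responses was 1.82 on the log2 scale, with an FDR of 0.0746 by edgeR and 0.00712 by DESeq2. For GST1 the same difference was -1.89 by DESeq2 (FDR 0.0460), while edgeR gave an FDR of 0.141.

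Outside the maize gene rows, and so outside the summed level of the 37 genes, 66 further rows were described as glutathione S-transferases. Of these rows, 34 had a maize description and held 955 to 2812 counts a library, and 1 had a fruit fly description. The 31 of them with a fungal description held 365, 30 and 27 counts in larva libraries, 315, 626 and 58 in regurgitate libraries, 1252, 3774 and 2732 in wounding libraries and 117, 18 and 52 in control libraries. Every wounding library lay above every other library in these fungal rows. The fruit fly row held 698, 2807 and 206 counts in wounding libraries and 670, 2054 and 9 in regurgitate libraries. It held 161, 24 and 16 counts in larva libraries and 54, 10 and 22 in control libraries. An assembled contig described as maize GST16 held 380, 1299 and 0 counts in regurgitate libraries and at most 8 in any other library, while the maize gene row of that name had 6 counts in all libraries together.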

How the results depend on the processing

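The values recomputed for single genes were those of members called or of smallest p in a comparison, not of every named member in each. Of these values 869 kept direction and side of the threshold, 67 lost and 24 gained a call and 6 reversed, all 6 when 1 library was left out. Leaving out 1 library gave -1.14 to 0.37 for GST29 (GRMZM2G127789) between larva and control. Between regurgitate and control it gave -0.94 to 0.22 for GST27 (GRMZM2G077206), -0.58 to 0.25 for GST5 (GRMZM2G308687) and -1.05 to 0.05 for GRMZM5G825090. It gave 0 to 1 members called between larva and control, 0 to 2 between regurgitate and wounding (2 without regurgitate replicate 2), 14 to 16 between wounding and control, 0 to 4 between regurgitate and control and 13 to 20 between larva and wounding. The members' medians then ranged from 0.06 to 0.36, -0.22 to 0.41, 0.38 to 0.81, 0.58 to 0.81 and -0.79 to -0.46 in the same order. Between regurgitate and wounding DESeq2 called 1 member and 1 fit of all libraries 2. Between regurgitate and control there were 10 by DESeq2, 7 in 1 fit of all libraries, 5 without a filter, 1 with total counts and 0 scaled over every feature. DESeq2 called 2 in the test of the difference. Medians moved to 0.27 between larva and control with larva replicates 2 and 3 summed. Total counts gave 0.32 between regurgitate and wounding and -0.19 between larva and wounding, where scaling over every feature gave -0.27, no filter -0.26 and a mean of at least 10 counts -0.48. The cause of these shifts was not tested, but total counts moved the median of all genes too, to 0.26, -0.44, -0.18 and 0.40 for regurgitate against wounding, wounding against control, regurgitate against control and larva against wounding.

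With the replicate number as a block, 0 members were called between regurgitate and wounding, where the numbers were taken to pair the libraries from correlations in these same data. The main test did not use that pairing. The block gave 0 members between regurgitate and control and 0 between larva and control. Between wounding and control it gave 14, and between larva and wounding 14. Over all genes 11 were called between regurgitate and wounding without the block and 0 with it. With 3 libraries a group, members under about 10 counts a library could not be tested.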
